A study of Homo sapiens with 9 samples.

Results

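Gene transcript levels were compared between 3 RNA-seq libraries labelled sgL1 and numbered 4 to 6 and 3 libraries labelled sgCtrl, which are 6 of the 9 libraries of the series. All 9 came from MDA-MB-231, an established human breast cancer line of the triple-negative, mesenchymal type. The series title places the cells in hypoxia, a lowered oxygen supply, for 6 h and speaks of knockdown, while the design text names knockout of UFL1 or UFM1. Here sgL1 is taken to mean a guide targeting UFL1, and sgCtrl a control guide; the labels spell out neither, and no library is labelled for UFM1. The meaning of the numbers 1 to 6, the guide sequences, the delivery of guide and nuclease, and whether the cells were a clone or a pool were not given in the sources used here. The sgL1 libraries 4 to 6 were chosen by their measured UFL1 counts, which lay above those of libraries 1 to 3 and below those of sgCtrl. UFL1 levels are therefore given as a description, and no gene was tested between sgL1 4-6 and sgL1 1-3. The labels do not say whether the libraries of a group are separate cultures, and the p-values cover the scatter among these libraries, part or all of which may be technical.

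UFM1 is a small ubiquitin-like protein that is attached to target proteins, many of them at the cytosolic face of the endoplasmic reticulum (ER). Its conjugating enzyme is UFC1, and UFL1 is its ligase, held at the ER membrane by DDRGK1 together with CDK5RAP3. The proteases UFSP1 and UFSP2 process UFM1 or remove it, and the ribosomal protein RPL26 is a well studied target at ribosomes docked on the ER.

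UFL1 (ENSG00000014123, chr6:96521595-96555276, GRCh38) stood at 22.8, 19.97 and 21.2 CPM in sgL1 4, 5 and 6. CPM here are counts scaled to library size, with a TMM factor that corrects for library composition. The sgCtrl libraries 1, 2 and 3 held 27.4, 25.3 and 25.4 CPM, and sgL1 1, 2 and 3 held 15.2, 12.97 and 12.8 CPM. Every sgL1 4-6 library was below every sgCtrl library and above every sgL1 1-3 library, and the mean of sgL1 4-6 was 81.8% of that of sgCtrl. The transcript was thus still present, and in bulk RNA fewer cells with a transcript and less RNA per cell cannot be told apart. Among the other 8 UFMylation genes 1 was called at an adjusted p under 0.05, near the share of 12.1% over all tested genes. It was UFM1 itself, at 60.8, 52.8 and 59.2 CPM against 48.9, 51.6 and 48.6 in sgCtrl, which is 0.21 ± 0.063 (SE) on the log2 scale (edgeR adjusted p = 0.0168). That call was lost without sgL1 4, sgL1 6, sgCtrl 1 or sgCtrl 3. The other 7 genes were not called, although 1 of them became called without sgCtrl 3. Their log2 fold changes ran from -0.21 in CDK5RAP3 to 0.17 in UFC1, and the groups overlapped for each. DDRGK1 was at 42.2, 47.3 and 42.1 CPM against 40.4, 33.9 and 45.2 in sgCtrl. In sgL1 1-3 it was at 50.6, 57.5 and 52.0 CPM and called higher (log2 fold change 0.42, edgeR adjusted p = 0.0021). UFC1 held 48.5, 56.4 and 46.9 CPM against 47.1, 44.3 and 43.8 (edgeR adjusted p = 0.0997).

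**Figure D1:**
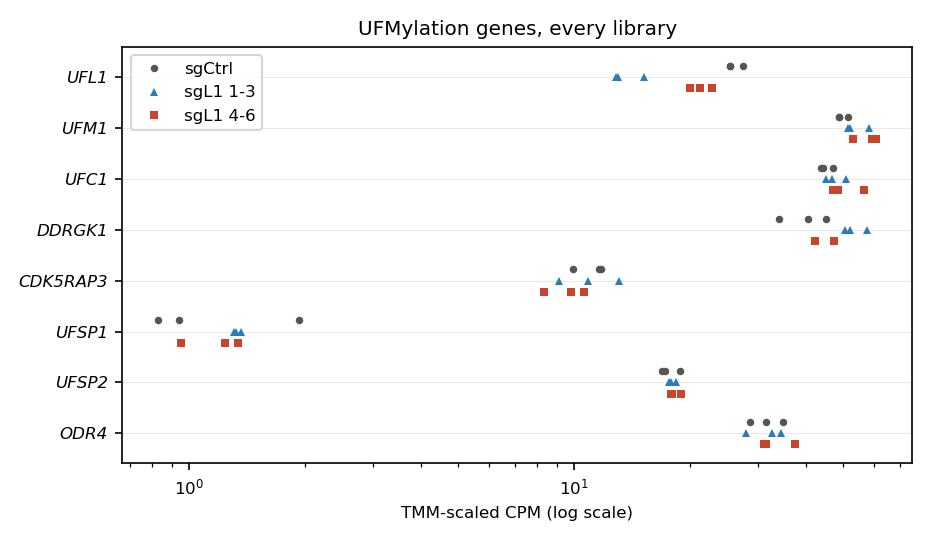
TMM-scaled CPM on a log axis of 8 UFMylation genes, 1 point per library, with sgCtrl as circles, sgL1 1-3 as triangles and sgL1 4-6 as squares. The squares of UFL1 lie between sgL1 1-3 and sgCtrl, which is the pattern that chose the libraries.

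Totals on named genes ran from 15420073 to 17038409 counts a library, and a count of 0 allows up to 0.176 to 0.195 CPM. Mitochondrially encoded genes took 3.55% to 3.67% of the counts in the 6 libraries compared and 3.06% to 3.55% in sgL1 1-3. Of 10 basal and mesenchymal markers of the line, only SPARC was under 1 CPM in all 9 libraries. VIM stood at 1258, 1254 and 1221 CPM in sgL1 4-6 and 1296, 1341 and 1288 in sgCtrl. Of 18 epithelial genes 5 were under 1 CPM throughout, the cadherin CDH1 among them. The epithelial keratin KRT8 was at 336, 351 and 338 CPM in sgL1 4-6 and 409, 407 and 421 in sgCtrl. Of 12 luminal markers only the oestrogen receptor ESR1 stayed under 1 CPM in all 9 libraries. Of 12 leukocyte markers 10 were under 1 CPM in all 9 libraries, PTPRC among them, and the 12 summed to 3.95 to 5.60 CPM in sgL1 4-6 against 3.08 to 3.39 in sgCtrl. Of 10 fibroblast markers 8 were under 1 CPM, COL1A2 and LUM at 0 throughout, and the sums were 15.9 to 17.5 CPM against 11.6 to 14.6. Of 7 endothelial markers 5 were under 1 CPM in all 9 libraries, and the sums were 14.3 to 15.9 CPM against 10.2 to 13.99. The 10 basal and mesenchymal markers of the line summed to 6180.4 to 6253 CPM in sgL1 4-6 and 6346 to 6437 in sgCtrl, the 18 epithelial genes to 1211 to 1259 and 1334 to 1398, and the 12 luminal markers to 282 to 286 and 257 to 274. These sums did not overlap between the groups, and their part in the results was not tested.

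Of 14830 genes tested with edgeR's quasi-likelihood test, 1800 (12.1%) differed between sgL1 4-6 and sgCtrl at an adjusted p under 0.05. Of these, 930 (6.27% of all tested) were higher and 870 (5.87%) lower. A change of at least 2-fold was fitted for 77 of the higher genes (0.519%) and 44 of the lower (0.297%), and the median absolute log2 fold change of the called genes was 0.28. Libraries of the 2 groups did not overlap for 4039 genes (27.2%). Most changes were thus small, and the largest rises included many secreted inflammatory proteins and proteases. In the same libraries the spread between replicates was low, with a common biological coefficient of variation of 4.90%. The same test of sgL1 1-3 against the same 3 sgCtrl libraries called 2249 of 14812 genes (15.2%), 1191 higher (8.04%) and 1058 lower (7.14%). Its values are set beside those of sgL1 4-6 only as values, because both comparisons share their controls.

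**Figure D2:**
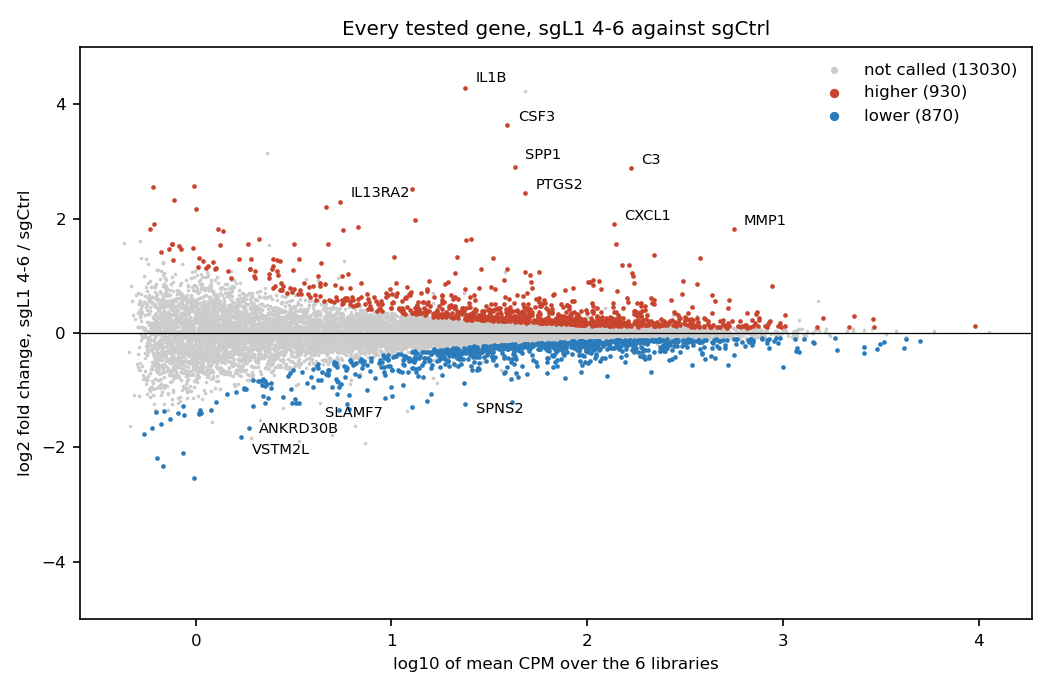
Log2 fold change of each of the 14830 tested genes in sgL1 4-6 against sgCtrl, over the log10 of the mean CPM of the 6 libraries, with the 930 genes called higher in red, the 870 called lower in blue and the rest in grey. IL1B, CSF3, SPP1 and C3 have the highest fold changes of the labelled genes, and no gene lies outside the plotted range.

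The largest rise among called protein-coding genes was that of IL1B (ENSG00000125538, chr2:112829751-112836903), which encodes the inflammatory cytokine interleukin-1 beta. IL1B was at 2.43, 2.32 and 2.18 CPM in sgCtrl and at 45.97, 42.002 and 47.3 CPM in sgL1 4, 5 and 6, a fitted 19.5-fold rise (log2 fold change 4.28 ± 0.11 SE; edgeR adjusted p = 4.06e-32). In sgL1 1-3 it was at 24.3, 21.4 and 24.6 CPM, below every sgL1 4-6 library and above every sgCtrl library. The difference in IL1B between the sgL1 sets was not tested. CSF3, the granulocyte colony-stimulating factor, stood at 71.5, 74.05 and 71.3 CPM against 5.68, 5.64 and 6.03 in sgCtrl and 63.4, 73.7 and 70.02 in sgL1 1-3. Its log2 fold change was 3.64 ± 0.084 in sgL1 4-6 (edgeR adjusted p = 3.18e-34), and the 2 sets of sgL1 libraries overlapped. Of 11 tested cytokines and growth factors of myeloid cells (17 listed), 6 rose and 1 fell. Over all tested genes 6.27% rose and 5.87% fell. Among them IL11 was at 127, 137 and 137 CPM against 71.3, 68.3 and 77.3, CSF2 at 40.1, 37.8 and 41.2 against 31.2, 25.5 and 27.1, and LIF at 131, 137 and 142 against 116, 111 and 115 (log2 fold changes 0.89, 0.51 and 0.26). IL18 was the member that fell, to 5.47, 7.78 and 7.52 CPM from 10.4, 12.2 and 11.999 (log2 fold change -0.74 ± 0.14; edgeR adjusted p = 6.56e-05).

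Of 10 tested chemokines (16 listed) 6 rose and 0 fell, beside 6.27% of all tested genes that rose. All 10 had positive fold changes, but the filter on low counts could be passed through the 3 libraries of 1 group. A low gene could therefore be tested because it was high in sgL1 4-6, and the shared sign is a description. The neutrophil-attracting CXCL1 was at 221, 211 and 216 CPM against 60.3, 52.6 and 59.7 in sgCtrl, a log2 fold change of 1.91 ± 0.047 (edgeR adjusted p = 3.79e-33). CXCL8, which encodes interleukin-8, was at 218, 207 and 207 CPM against 72.8, 72.1 and 70.1. CXCL3 stood at 19.5, 21.6 and 22.2 CPM against 5.43, 4.52 and 6.096, and CXCL2 at 15.8, 14.02 and 14.7 against 7.73, 5.33 and 4.56. No sgL1 4-6 library of these 4 genes overlapped a sgCtrl library, and log2 fold changes were 1.56, 1.98 and 1.33 for CXCL8, CXCL3 and CXCL2. In sgL1 1-3 the fold changes were 1.76 for CXCL1, 1.36 for CXCL8, 1.74 for CXCL3 and 1.203 for CXCL2. CXCL1, CXCL2 and CXCL3 are close paralogs, so reads could have been divided among them by the counting.

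The start regions of these 4 genes are shown because the genes rose together and share a short element. Each is the 250 bases before the RefSeq start (GRCh38.p14), 5′ to 3′ on the gene's strand, and capitals mark GGAATTTCC, the core of a site of the kind bound by NF-kB, the main transcription factor of inflammatory genes.
CXCL1 (chr4:73869143-73869392, plus strand): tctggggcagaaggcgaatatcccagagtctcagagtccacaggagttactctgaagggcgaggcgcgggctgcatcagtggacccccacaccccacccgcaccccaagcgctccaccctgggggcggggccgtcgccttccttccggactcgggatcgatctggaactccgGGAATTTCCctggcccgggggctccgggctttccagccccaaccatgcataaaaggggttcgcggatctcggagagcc
CXCL2 (chr4:74099196-74099445, minus strand): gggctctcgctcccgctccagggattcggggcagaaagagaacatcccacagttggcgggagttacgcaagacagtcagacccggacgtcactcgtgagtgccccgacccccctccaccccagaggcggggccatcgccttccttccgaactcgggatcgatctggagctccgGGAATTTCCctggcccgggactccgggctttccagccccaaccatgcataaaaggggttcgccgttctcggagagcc
CXCL3 (chr4:74038690-74038939, minus strand): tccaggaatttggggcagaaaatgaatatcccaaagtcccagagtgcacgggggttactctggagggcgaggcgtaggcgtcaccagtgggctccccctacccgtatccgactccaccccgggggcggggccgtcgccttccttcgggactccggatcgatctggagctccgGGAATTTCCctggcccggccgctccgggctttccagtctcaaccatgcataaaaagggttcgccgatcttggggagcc
CXCL8 (chr4:73740319-73740568, plus strand): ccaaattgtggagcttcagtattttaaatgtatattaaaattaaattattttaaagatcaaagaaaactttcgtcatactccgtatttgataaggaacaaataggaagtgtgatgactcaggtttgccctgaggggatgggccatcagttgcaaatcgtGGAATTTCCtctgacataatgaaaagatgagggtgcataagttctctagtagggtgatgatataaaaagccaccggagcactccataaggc
The element begins 78, 77, 78 and 91 bases before the start of CXCL1, CXCL2, CXCL3 and CXCL8. Its letters were chosen after these sequences had been seen and were searched on both strands. They occurred in 145 of 35114 RefSeq windows of this length (0.413%), and in 5 of the 7 tested chemokine genes with a record. The fifth is CXCL11, which was not called (log2 fold change 0.88; edgeR adjusted p = 0.0742). They were also in 3 of the 5 with a record that were too low to be tested. A match is a description of letters and not a binding site.

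The hypoxia response core ACGTG, the TEAD motif GGAATG and the AP-1 motif TGANTCA were searched on both strands in the windows of the 15 largest rises and 15 largest falls, of which 8 and 11 had a record. ACGTG was in 1 of the 8 and 2 of the 11 windows, against 18.5% of all windows. GGAATG was in 1 of the 8 and 1 of the 11, against 11.9%, and TGANTCA in 0 of the 8 and 0 of the 11, against 6.57%. GGAATTTCC, which does not overlap these, was in 2 of the 8 and 0 of the 11. The 2 are CXCL1 and CXCL3, whose sequences had been seen when these letters were chosen, so the count follows from that choice. The window of C15orf48 (COXFA4L3 in RefSeq) is shown as the riser with the hypoxia core, in capitals as read on this strand.
C15orf48 (chr15:45430360-45430609, plus strand): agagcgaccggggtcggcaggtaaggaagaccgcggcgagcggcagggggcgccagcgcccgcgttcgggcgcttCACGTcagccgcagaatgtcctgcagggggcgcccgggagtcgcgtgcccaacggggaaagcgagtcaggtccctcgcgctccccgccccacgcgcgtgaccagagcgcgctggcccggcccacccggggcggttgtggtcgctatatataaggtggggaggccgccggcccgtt
C15orf48 encodes a small mitochondrial protein that can take the place of the complex IV subunit NDUFA4. It stood at 20.4, 22.7 and 22.2 CPM against 4.28, 2.697 and 4.43 in sgCtrl (log2 fold change 2.52 ± 0.13; edgeR adjusted p = 1.36e-19), and at 21.4, 22.4 and 22.3 CPM in sgL1 1-3. NDUFA4 rose slightly, to 60.4, 58.1 and 55.2 CPM from 50.1, 46.6 and 51.8, a call that was lost without sgCtrl 2.

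C3, the central protein of the complement cascade, was at 275, 302 and 304 CPM in sgL1 4-6 and 39.7, 38.4 and 41.96 in sgCtrl, a 7.34-fold rise (edgeR adjusted p = 9.61e-40). Of 10 tested complement genes and regulators (17 listed), 2 rose, C3 and C1R, and 2 fell, CD55 and CLU. Those called are 40% of the tested members, beside 12.1% of all tested genes. CD55, a cell-surface inhibitor of complement, fell to 88.97, 86.1 and 84.01 CPM from 123, 122 and 119 (log2 fold change -0.49 ± 0.045). The call of C1R was lost without sgL1 6 or sgCtrl 1, and that of CLU whichever of the 6 libraries was left out. C4BPB, a subunit of a circulating complement inhibitor, is named among the falls.

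PTGS2, the inducible cyclooxygenase of prostaglandin synthesis, was at 82.4, 80.9 and 80.1 CPM against 12.3, 16.4 and 15.8 in sgCtrl (log2 fold change 2.45 ± 0.077; edgeR adjusted p = 1.6e-27). Of 11 tested genes of this pathway (19 listed), 5 rose and 1 fell, while the median log2 fold change of the 11 was -0.024. The risers included PTGES, a terminal synthase of prostaglandin E2, at 83.4, 88.5 and 87.3 CPM against 62.01, 57.1 and 63.6, and PLA2G4A, a phospholipase that releases arachidonic acid, at 13.6, 15.2 and 14.6 against 7.86, 9.09 and 10.97. A second phospholipase of the family, PLA2G4D, was at 1.37, 1.53 and 2.04 CPM against 0.319, 0.502 and 0.257 and was not called with DESeq2. The prostaglandin E2 receptor PTGER4 fell to 12.3, 10.9 and 13.003 CPM from 18.2, 15.7 and 17.6 (log2 fold change -0.51). Over all NF-kB-driven inflammatory genes tested, 13 of 22 (26 listed) rose and 1 fell, with a median log2 fold change of 0.44 beside -0.0031 over all tested genes. Calls were 54.5% of the prostaglandin genes and 63.6% of the NF-kB-driven genes, beside 12.1% of all tested genes. NFKBIZ, a nuclear IkB protein, was at 49.3, 44.005 and 46.2 CPM against 30.97, 27.2 and 31.8, and BIRC3, an inhibitor of apoptosis, was the member that fell, to 148, 125 and 131 from 157, 177 and 167.

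Cytokine receptors and decoy receptors changed in both directions, with 6 of 15 tested (18 listed) that rose and 3 that fell. Together these are 60% of the tested members, beside 12.1% called over all tested genes. IL13RA2, a decoy receptor for interleukin-13, stood at 9.28, 9.72 and 8.29 CPM in sgL1 4-6, 5.57, 4.99 and 5.28 in sgL1 1-3 and 2.11, 1.44 and 1.99 in sgCtrl. Its log2 fold change was 2.30 ± 0.18 in sgL1 4-6 (edgeR adjusted p = 1.19e-13) and 1.51 ± 0.22 in sgL1 1-3, and none of the 3 groups overlapped another. IL1RAP, the shared subunit of interleukin-1 receptors, was at 37.8, 33.3 and 35.7 CPM against 20.8, 20.1 and 20.6. IL1R1, the signalling receptor for interleukin-1, was at 6.84, 6.48 and 7.65 CPM against 4.53, 4.83 and 4.299 (log2 fold change 0.62; lost without sgL1 6). OSMR, the oncostatin M receptor, rose to 204, 193 and 203 CPM from 162, 149.9 and 152, and TNFRSF1B, tumour necrosis factor receptor 2, fell to 0.773, 1.83 and 1.47 from 3.32, 3.14 and 3.02.

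**Figure D3:**
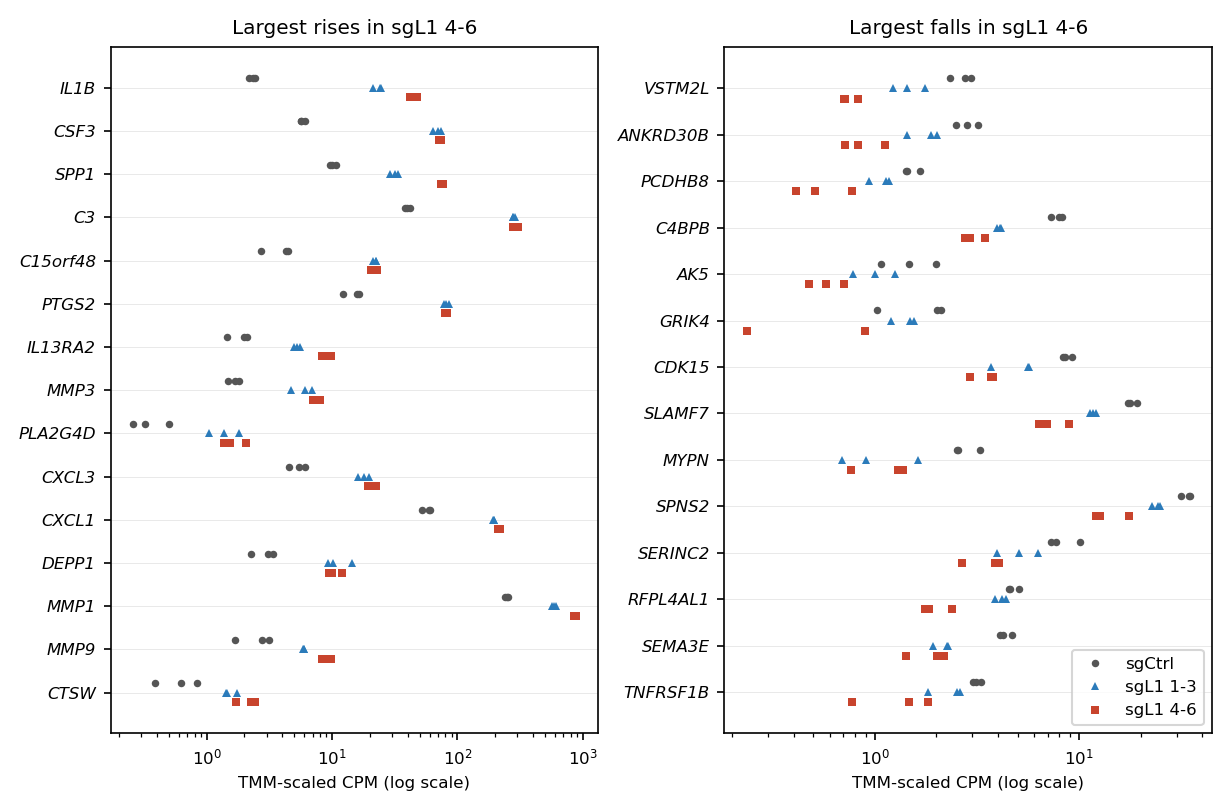
TMM-scaled CPM on a log axis in every library for the 15 protein-coding genes with the largest rises (left) and 14 of the 15 with the largest falls (right) in sgL1 4-6 against sgCtrl, with sgCtrl as circles, sgL1 1-3 as triangles and sgL1 4-6 as squares. No square overlaps a circle of the same gene, as the choice of genes required. For IL1B, SPP1, IL13RA2, MMP1 and MMP9 all triangles lie between circles and squares.

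Extracellular proteases and matrix proteins were also among the large rises. SPP1, which encodes the matrix-linked cytokine osteopontin, was at 76.7, 74.9 and 74.4 CPM in sgL1 4, 5 and 6 and 10.7, 9.596 and 9.95 CPM in sgCtrl. The log2 fold change was 2.90 ± 0.076 (edgeR adjusted p = 5.43e-32), and sgL1 1-3 held 33.4, 31.6 and 28.8 CPM, between the other groups without overlap. MMP1 (ENSG00000196611, chr11:102789920-102798160), the interstitial collagenase, was at 882, 884 and 852 CPM against 242, 254 and 248 in sgCtrl and 589.5, 572 and 615 in sgL1 1-3 (log2 fold changes 1.81 and 1.25; edgeR adjusted p = 4.01e-38 in sgL1 4-6). The stromelysin MMP3 was at 7.08, 7.95 and 7.78 CPM against 1.47, 1.82 and 1.67, and the gelatinase MMP9 at 8.45, 8.37 and 9.75 against 2.75, 3.14 and 1.67. The membrane-bound MMP14 was at 619, 639.5 and 648 CPM against 433, 415 and 436 (log2 fold change 0.57). The remaining 2 of the 15 largest rises were CTSW, a papain-type protease at 2.26, 2.42 and 1.72 CPM against 0.83, 0.627 and 0.385, and DEPP1, a FOXO-regulated gene at 9.52, 11.96 and 10.1 against 2.24, 3.07 and 3.401. Of 19 tested metalloproteinases and inhibitors (23 listed), 8 rose and 1 fell, so that 47.4% were called, beside 12.1% of all tested genes. The member that fell was the inhibitor TIMP3, at 371, 366 and 371 CPM against 481, 485 and 495 (log2 fold change -0.40 ± 0.033; edgeR adjusted p = 2.38e-13).

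In the plasminogen system and the serpins, 7 of 19 members rose and 3 fell (5 fell with an offset for transcript GC content, described further on), with a median log2 fold change of -0.0069. Without the offset 52.6% of the list were called, beside 12.1% of all tested genes. TFPI2, a protease inhibitor of the matrix, was at 233, 229.5 and 223 CPM against 100.5, 101 and 99.7 (log2 fold change 1.19). SERPINB2, an inhibitor of plasminogen activators, was at 154, 146 and 147 CPM against 87.9, 95.3 and 80.1. The urokinase receptor PLAUR was at 318, 322 and 321 CPM against 215, 212 and 215. F3, the tissue factor that starts coagulation, fell to 141, 133 and 136 CPM from 180.0, 179 and 179.5. SERPINB2 had a log2 fold change of 0.76 ± 0.049 in sgL1 4-6 and 0.30 ± 0.054 in sgL1 1-3, whose libraries held 111, 108 and 105 CPM.

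The counts of the lists in this paragraph stand beside 6.27% of all tested genes that rose and 5.87% that fell. Collagens rose in 9 and fell in 2 of 17 tested (19 listed), or fell in 1 without sgL1 4, sgCtrl 1 or sgCtrl 3. COL7A1, the anchoring-fibril collagen, was at 210.0, 238 and 224 CPM against 124, 116 and 129, and COL5A1 at 89.3, 93.9 and 98.8 against 67.7, 66.4 and 69.8. COL8A1 fell to 29.6, 30.1 and 30.1 CPM from 48.2, 52.7 and 55.4. Of 20 tested matrix glycoproteins (29 listed), 7 rose and 3 fell. TNC, tenascin C, was at 138, 158 and 156 CPM against 79.8, 78.3 and 82.5, and TGFBI at 62.9, 68.3 and 65.4 against 32.9, 31.99 and 28.9. Integrins and laminins rose in 11 and fell in 2 of 21 tested (24 listed), with 0 falls without sgL1 4 or sgCtrl 3 and 1 without sgCtrl 1. ITGA1, the alpha subunit of a collagen receptor, had the largest change of them, 82.6, 70.5 and 77.4 CPM against 34.997, 36.3 and 38.1 (log2 fold change 1.07 ± 0.064; edgeR adjusted p = 4.28e-18). ITGA2, the alpha subunit of another collagen receptor, was at 551, 511 and 557 CPM against 348, 369 and 377.

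Among TGF-beta ligands, receptors and SMAD proteins, 9 of 32 tested (33 listed) rose and 3 fell, and 5 rose without sgCtrl 1. With all 6 libraries 37.5% of the tested members were called, beside 12.1% of all tested genes. INHBA, the subunit of activin A, was at 52.7, 46.4 and 49.3 CPM against 25.8, 26.6 and 25.3 and 39.7, 34.6 and 37.4 in sgL1 1-3, and the inhibitory SMAD7 at 17.4, 21.4 and 18.2 against 11.05, 10.9 and 12.5. TGFB2 fell to 31.8, 31.3 and 34.8 CPM from 56.7, 53.4 and 56.5, and INHBB, another activin subunit, to 11.1, 9.48 and 11.5 from 19.1, 18.2 and 17.2. The log2 fold changes of INHBA, SMAD7, TGFB2 and INHBB were 0.93, 0.73, -0.77 and -0.77. ERRFI1, a feedback inhibitor of the EGF receptor, was at 1127, 1101 and 1161 CPM against 642, 618 and 645 (log2 fold change 0.83), while the ligand AREG fell to 34.6, 30.8 and 33.5 from 50.3, 57.6 and 52.4.

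The largest falls were in genes at low levels. VSTM2L was at 0.714, 0.707 and 0.829 CPM in sgL1 4-6 against 2.75, 2.32 and 2.95 in sgCtrl (log2 fold change -1.83 ± 0.32; edgeR adjusted p = 3.09e-05). C4BPB fell to 3.45, 2.77 and 2.93 CPM from 7.92, 7.28 and 8.21, and CDK15, a cyclin-dependent kinase, to 2.91, 3.77 and 3.697 from 8.37, 8.47 and 9.24. At higher levels, SLAMF7, a receptor of immune cells, was at 6.96, 8.895 and 6.37 CPM against 17.4, 17.8 and 19.2. SPNS2, the exporter of the lipid mediator sphingosine-1-phosphate, was at 12.1, 17.6 and 12.7 CPM against 34.7, 31.6 and 34.3 and 22.8, 24.2 and 24.8 in sgL1 1-3. Its log2 fold change was -1.25 ± 0.10 in sgL1 4-6 (edgeR adjusted p = 3.41e-10) and -0.49 ± 0.079 in sgL1 1-3. The guidance cue SEMA3E was at 1.43, 2.003 and 2.17 CPM against 4.09, 4.704 and 4.23, and the sarcomere protein gene MYPN at 1.37, 1.296 and 0.765 against 2.55, 2.51 and 3.27. SERINC2 was at 2.68, 4.06 and 3.89 CPM against 7.66, 10.1 and 7.25. The planar polarity cadherin FAT3 fell to 25.7, 26.7 and 22.2 CPM from 58.4, 60.1 and 54.03, and PRICKLE1 of the same pathway to 6.24, 6.07 and 6.88 from 13.5, 12.9 and 14.8.

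Hypoxia-inducible factors (HIF) are stabilised when oxygen falls and induce genes of glucose use, angiogenesis and oxygen sensing. Of 41 tested HIF targets 35 rose and 0 fell, against 6.27% of all tested genes that rose. The median log2 fold change of these targets was 0.43. Like all lists here, this one was chosen with earlier results of these data known, so the comparison of shares is a description. ANGPTL4, a secreted inhibitor of lipoprotein lipase, was at 37.3, 40.4 and 37.9 CPM against 15.01, 10.5 and 11.3. DDIT4, an inhibitor of mTORC1 signalling, was at 309, 312 and 323 CPM against 122, 115 and 129.6 (log2 fold change 1.37 ± 0.041; edgeR adjusted p = 9.7e-30). The transcriptional repressor BHLHE40 stood at 203, 212 and 212 CPM against 87.8, 89.7 and 96.1, and the glycosylated hormone STC1 at 229.9, 230.5 and 228 against 108, 112 and 115. VEGFA, the main angiogenic factor, was at 467, 458 and 483 CPM against 254, 255 and 264. In sgL1 1-3, 37 members were called higher, and VEGFA was at 488, 538 and 528 CPM and ANGPTL4 at 45.5, 43.4 and 47.9. Of 15 tested HIF subunits and regulators (17 listed) 0 rose and 2 fell, and 1 rose with the GC offset. The 2 are 13.3% of those tested, near the 12.1% of all tested genes that were called. They are CITED2, an inhibitor of HIF, at 91.4, 98.9 and 88.4 CPM against 133, 126 and 119.6, and ARNT2, at 16.4, 19.5 and 20.5 against 24.3, 24.2 and 24.3. The call of ARNT2 was lost without sgL1 4. Of 18 tested glycolysis genes (19 listed) 9 rose and 0 fell, with hexokinase HK2 at 478, 489 and 499.8 CPM against 365, 376 and 405 and PGK1 at 1150.5, 1132 and 1143 against 936, 906 and 922.

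Chaperones of the ER and genes of the unfolded protein response rose in 14 and fell in 0 of 28 tested (29 listed), with a median log2 fold change of 0.18. The changes were small. The main ER chaperone HSPA5 was at 918, 914 and 915 CPM against 793, 813 and 779 (log2 fold change 0.20 ± 0.03; edgeR adjusted p = 1.32e-06). XBP1, a transcription factor of the response, was at 75.4, 74.3 and 74.96 CPM against 57.5, 55.8 and 59.9, and sgL1 1-3 held 978, 985 and 1009 CPM of HSPA5 and 79.2, 82.8 and 82.5 of XBP1. Among genes of the signal recognition particle, the translocon and oligosaccharyltransferase 9 of 32 rose and 0 fell, but 5 rose without sgCtrl 1 or sgCtrl 3. In ER-Golgi transport 7 of 30 rose and 0 fell, and in ER-associated degradation 5 of 18 tested (21 listed) rose and 0 fell, 3 of them without sgL1 6 or sgCtrl 1. Members that rose were 50% of the chaperone list, 28.1% of the signal recognition particle list, 23.3% of ER-Golgi transport and 27.8% of ER-associated degradation. Over all tested genes 6.27% rose. Of 26 tested genes of the ATF4 stress response (28 listed) 5 rose and 3 fell, and 9 rose with the GC offset. Without the offset 30.8% of the 26 were called, beside 12.1% of all tested genes. CEBPB was at 165, 181 and 183 CPM against 129, 137 and 122, and the amino-acid transporter SLC7A5 fell to 842, 927 and 896 from 989, 994 and 1009.

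**Figure D4:**
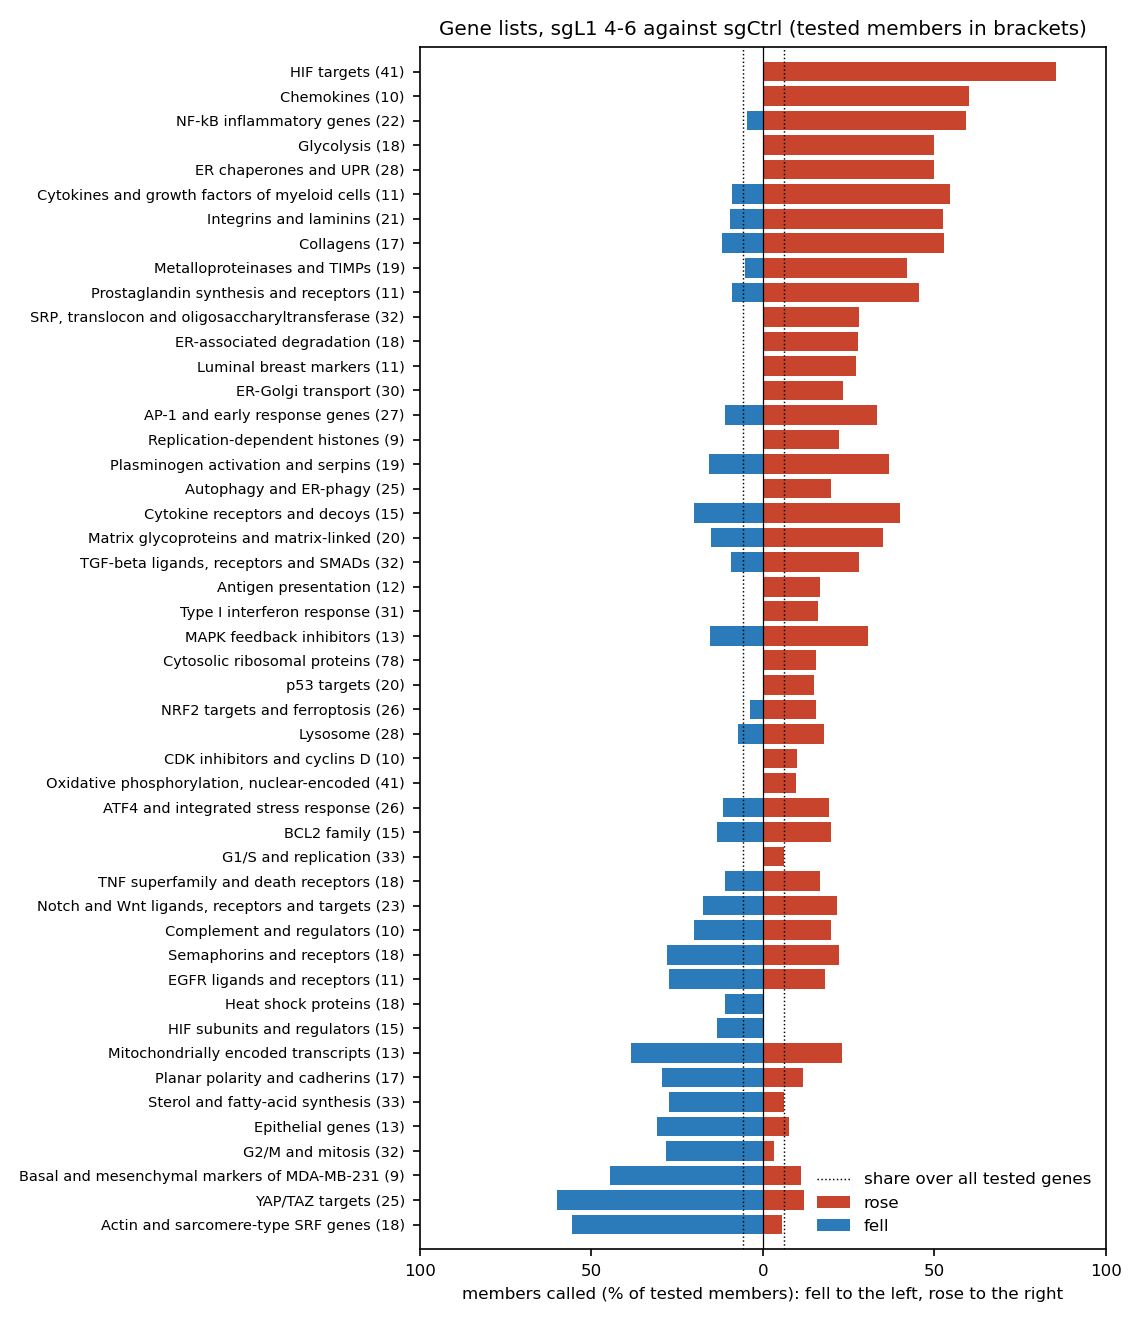
Share of the tested members of each gene list that rose (right, red) or fell (left, blue) in sgL1 4-6 against sgCtrl, in percent, with the number of tested members in brackets; dotted lines mark the shares over all tested genes, 6.27% higher and 5.87% lower. HIF targets have the longest bar to the right, and YAP/TAZ targets and actin genes have the longest to the left. The lists were chosen with earlier results of these data known.

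YAP and TAZ are transcriptional co-activators that respond to cell tension and act through TEAD factors, and SRF drives actin genes. Of 25 YAP/TAZ targets 15 fell and 3 rose (1 without sgL1 5, sgCtrl 1 or sgCtrl 2), beside falls in 5.87% of tested genes. The median log2 fold change of the targets was -0.26, and this list too was chosen with earlier results known. ANKRD1 fell to 812, 804 and 777 CPM from 1223, 1198 and 1189 (log2 fold change -0.59 ± 0.03; edgeR adjusted p = 1.14e-20). CTGF was at 431, 418 and 428 CPM against 618, 647 and 607, and CYR61 at 1067, 1094 and 1053 against 1389.5, 1342 and 1330.1; both encode matrix-linked growth regulators. In sgL1 1-3 ANKRD1 was at 882, 824 and 855 CPM and CTGF at 438, 421 and 429. Of 18 tested actin and sarcomere-type genes (21 listed) 10 fell and 1 rose. Vinculin, VCL, was at 322, 339 and 352 CPM against 455, 472 and 456, and cytoplasmic actin ACTG1 at 3789.9, 3837 and 3808 against 4630.0, 4586 and 4446. The tyrosine kinase AXL, a marker of mesenchymal breast cancer cells, fell to 1059, 1083 and 1073 CPM from 1264, 1297 and 1307, while CD44 rose to 817, 812 and 818 from 641, 662 and 645. Among 13 tested epithelial genes (18 listed) 4 fell and 1 rose. The keratin genes KRT7 and KRT8 fell to 179, 188 and 183 and 336, 351 and 338 CPM from 229.7, 216 and 233 and 409, 407 and 421, and KRT81 rose to 92.1, 97.02 and 89.2 from 69.9, 60.3 and 66.8.

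Genes of sterol and fatty-acid synthesis, which are driven by SREBP factors, fell in 9 and rose in 2 of 33 in sgL1 4-6. In sgL1 1-3 the same 33 had 1 fall and 8 rises. Over all tested genes 5.87% fell and 6.27% rose in sgL1 4-6, and 7.14% fell and 8.04% rose in sgL1 1-3. SCD, the stearoyl-CoA desaturase, was at 461, 466 and 482 CPM against 544, 535 and 544 in sgCtrl and 517, 518 and 543 in sgL1 1-3. The sgL1 4-6 libraries lay below all others, with a log2 fold change of -0.21 ± 0.032 (edgeR adjusted p = 4.6e-06), and it was -0.041 ± 0.034 in sgL1 1-3 (edgeR adjusted p = 0.475). ACLY, which makes cytosolic acetyl-CoA, was at 442, 462 and 459 CPM against 501, 492 and 508. FDFT1, the squalene synthase, was at 17.01, 11.02 and 14.5 CPM against 24.3, 19.6 and 20.1 and 27.3, 27.7 and 14.7 in sgL1 1-3. FADS1, a fatty-acid desaturase, and INSIG2, an inhibitor of SREBP activation, rose in sgL1 4-6, with log2 fold changes of 0.17 and 0.33. With limma on log2(FPKM + 1), 3 genes of this list fell.

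**Figure D5:**
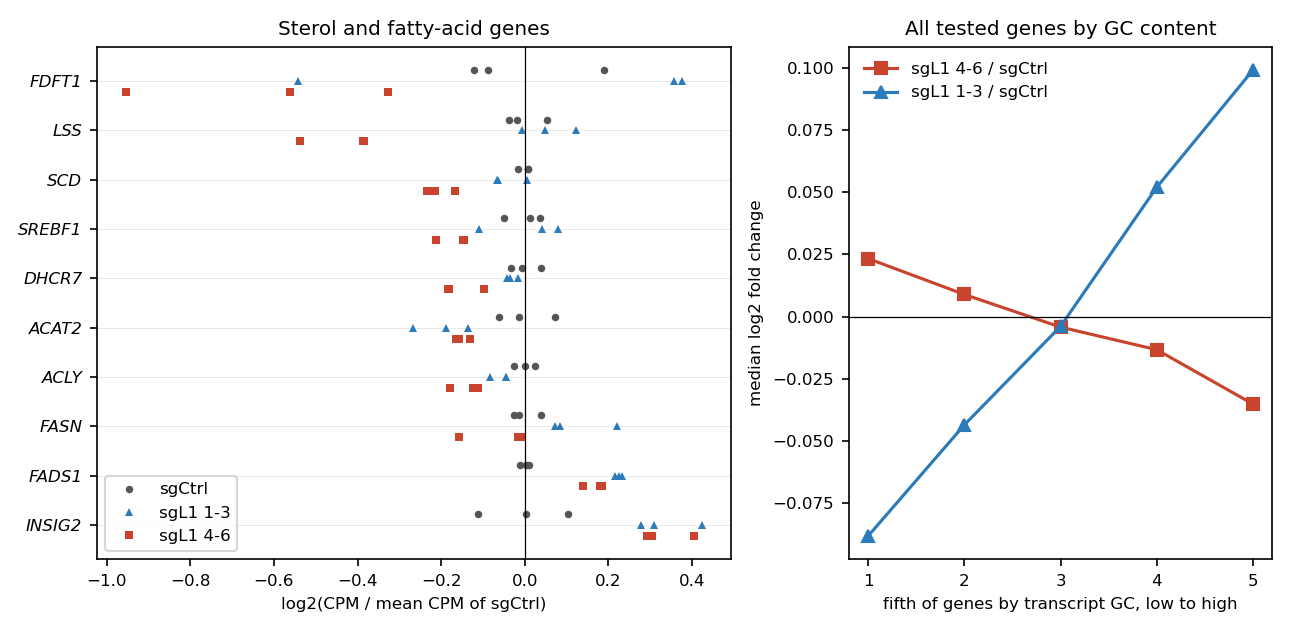
Left, log2 of CPM over the mean CPM of sgCtrl in every library for 10 genes of sterol and fatty-acid metabolism, with sgCtrl as circles, sgL1 1-3 as triangles and sgL1 4-6 as squares; LSS and SCD have all squares below all other points. Right, median log2 fold change of all tested genes in 5 bins by transcript GC content, from 0.023 to -0.035 in sgL1 4-6 (squares) and from -0.088 to 0.099 in sgL1 1-3 (triangles), both against sgCtrl.

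Of 1630 protein-coding genes called in sgL1 4-6 without overlap with sgCtrl, 417 had an adjusted p of at least 0.05 and less than 50% of the log2 change in sgL1 1-3. Of these, 168 were higher and 249 lower, or 218 and 190 with upper-quartile scaling. For 315 of the 417 the sgL1 4-6 libraries overlapped neither other group. Separation from sgCtrl was a condition of the choice, and the limit on the change in sgL1 1-3 favours separation from sgL1 1-3. The 315 are therefore a description of the chosen genes. An adjusted p above the threshold does not show that sgL1 1-3 equalled sgCtrl, and the difference between the sgL1 groups was not tested. The count fell to 111 higher and 149 lower without sgL1 4, to 105 and 148 without sgCtrl 1, and to 163 lower without sgCtrl 3. Base composition moved with it: the 168 higher genes had a median transcript GC content of 41.0% and the 249 lower genes 58.5%, beside 47.8% over all tested genes. The median log2 fold change over all genes fell with GC content in sgL1 4-6 and rose with it in sgL1 1-3. With a GC-dependent offset for each library, chosen after seeing these data, 105 higher and 163 lower genes met the same criteria, 169 of them among the 417. Of the sterol and fatty-acid genes 9 fell and 3 rose in sgL1 4-6 with that offset, and 2 fell and 6 rose in sgL1 1-3. SCD then had log2 fold changes of -0.21 and -0.033.

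Among the 417, the largest rises in genes that kept their call whichever library was left out included SPOCK1, a proteoglycan of the testican family. SPOCK1 was at 13.4, 13.2 and 12.7 CPM in sgL1 4-6, 7.09, 8.28 and 8.98 in sgCtrl and 8.55, 9.98 and 10.4 in sgL1 1-3 (log2 fold changes 0.69 and 0.25). ATP5ME, a subunit of ATP synthase, was at 7.43, 5.596 and 6.82 CPM against 5.11, 2.38 and 3.53 and 3.43, 4.86 and 5.03, and TNFSF12, the cytokine TWEAK, at 9.04, 8.13 and 7.27 against 6.07, 5.21 and 4.88 and 5.38, 6.55 and 6.35. Reads of TNFSF12 may be shared with an annotated read-through gene. BTBD11 was at 6.54, 4.65 and 6.57 CPM against 3.704, 2.95 and 3.14 and 4.15, 4.12 and 4.21, and the zinc-finger gene ZNF568 at 9.75, 11.1 and 10.6 against 6.77, 7.59 and 6.99 and 8.03, 8.54 and 7.55. With log2(FPKM + 1) the calls of ATP5ME, BTBD11 and ZNF568 were lost. LY75, ADGRE2, CNPY2, IL1R1 and ZFP14 complete the 10 largest rises, and each of these lost its call without at least 1 library.

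Of the 10 largest falls in that set, MEGF6 stood at 7.67, 8.42 and 7.71 CPM in sgL1 4-6, 16.4, 12.6 and 15.6 in sgCtrl and 13.4, 12.6 and 13.8 in sgL1 1-3. Its log2 fold change was -0.90 ± 0.12 in sgL1 4-6 (edgeR adjusted p = 1.42e-07) and -0.16 ± 0.11 in sgL1 1-3 (edgeR adjusted p = 0.377). KIRREL3, an adhesion protein of the immunoglobulin family, was at 1.84, 2.42 and 1.59 CPM against 4.47, 4.704 and 4.49 and 3.69, 3.06 and 2.71. RFPL4AL1, which has close paralogs that could share its reads, was at 2.38, 1.77 and 1.85 CPM against 5.05, 4.52 and 4.56 and 3.89, 4.18 and 4.404. ANKRD30B was at 0.714, 1.12 and 0.829 CPM against 3.19, 2.82 and 2.502 and 2.01, 1.43 and 1.89. PCDHB8, AK5, GRIK4 and TSPAN8 lost their calls without 1 of 3 libraries each, and TNFRSF1B, described with the receptors, is also among the 10. With the GC offset 2 of the genes named in these lists of 10 no longer met the criteria, KIRREL3, at -1.19 and -0.62 (edgeR adjusted p = 0.0363 in sgL1 1-3), and ZFP14, at 0.55 and 0.31, in log2 fold change in sgL1 4-6 and sgL1 1-3.

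Cytosolic ribosomal protein genes rose in 12 and fell in 0 of 78, and in sgL1 1-3 2 of them rose. The 12 are 15.4% of the list, beside 6.27% of all tested genes that rose, or 8.04% in sgL1 1-3. In sgL1 4-6 the count that rose was 7 without sgL1 5 and 19 with the GC offset. RPL26, the UFM1 target, was at 95.3, 92.5 and 90.96 CPM in sgL1 4-6, 63.2, 69.8 and 68.5 in sgCtrl and 52.1, 49.5 and 81.7 in sgL1 1-3, where sgL1 3 stood apart from sgL1 1 and 2. Its log2 fold change was 0.47 ± 0.051 in sgL1 4-6 (edgeR adjusted p = 9.37e-10), and the call was lost when all 9 libraries were fitted together. Ribosomal protein genes have many near-identical copies, so their counts depend on how shared reads were assigned. Next by p-value, RPL23 was at 555, 561 and 546 CPM against 497, 463 and 508, and RPS24 at 689, 688 and 674 against 643, 587 and 623.

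Mitochondrially encoded transcripts went in both directions, with 3 of 13 that rose and 5 that fell. Together these are 61.5% of the 13, beside 12.1% called over all tested genes. MT-ATP6 fell to 2315, 2226 and 2272 CPM from 2804, 3060.2 and 2842, and MT-ND2 to 2784, 2685 and 2709.6 from 3234, 3386 and 3262. MT-CO2 rose to 3173, 3084 and 3109 CPM from 2622, 2563 and 2744. With all 9 libraries in 1 fit, 1 of the 13 fell. Of 31 tested interferon-response genes (34 listed) 5 rose and 0 fell, or 3 rose without sgL1 6. The 5 are 16.1% of those tested, beside 6.27% of all tested genes that rose. OASL was at 15.6, 15.4 and 16.1 CPM against 10.5, 11.98 and 11.04, and IFIT2 at 55.3, 46.9 and 52.3 against 42.1, 40.4 and 40.4. Mitotic genes fell in 9 and rose in 1 of 32 (0 without sgL1 4, sgL1 6, sgCtrl 2 or sgCtrl 3), by small amounts. With all 6 libraries 31.2% of the list were called, beside 12.1% of all tested genes. CDC20, which activates the anaphase-promoting complex, was at 232, 242 and 235 CPM against 264, 267 and 275, and HMMR at 23.7, 22.3 and 23.5 against 31.6, 27.7 and 29.3. Genes of the G1/S transition and replication rose in 2 and fell in 0 of 33 tested (34 listed), near the share over all tested genes (4 rose with the GC offset, 1 without sgL1 6 or sgCtrl 3). The nuclear-encoded subunits of oxidative phosphorylation rose in 4 and fell in 0 of 41 (43 listed), or rose in 2 without sgL1 5 or sgCtrl 2. The 4 are 9.76% of the list, near the 6.27% of all tested genes that rose.

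Among other regulators, JUNB of the AP-1 family was at 77.97, 87.8 and 94.9 CPM against 62.3, 61.8 and 65.3, and KLF2 fell to 40.1, 47.4 and 44.9 from 64.1, 59.2 and 60.1. AP-1 and early response genes rose in 9 and fell in 3 of 27 tested (28 listed), or rose in 5 without sgL1 4. With all 6 libraries 44.4% of the 27 were called, beside 12.1% of all tested genes. The anti-apoptotic MCL1 was at 815, 822 and 848 CPM against 641, 652 and 635, and BCL2L1, of the same family, fell to 159, 168 and 158 from 205, 192 and 214. The Wnt inhibitor DKK1 fell to 167, 162 and 162 CPM from 269, 274 and 245, while the ligand WNT5A rose to 59.7, 57.5 and 54.6 from 37.04, 36.9 and 35.4. SQSTM1, an autophagy receptor, was at 67.2, 69.2 and 79.8 CPM against 51.03, 46.04 and 53.001 and 72.9, 89.4 and 43.8 in sgL1 1-3, and its call was lost when all 9 libraries were fitted together.

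The remaining lists are given as counts over their tested members, beside 6.27% of all tested genes that rose and 5.87% that fell. MAPK feedback inhibitors rose in 4 and fell in 2 of 13, with 0 falls without sgL1 6 or sgCtrl 1 and 1 without sgCtrl 2 or sgCtrl 3, and EGFR ligands and receptors rose in 2 and fell in 3 of 11. Planar polarity genes and cadherins rose in 2 and fell in 5 of 17, and rose in 1 without sgL1 6 or sgCtrl 3. Semaphorins and their receptors rose in 4 and fell in 5 of 18, and fell in 3 without sgL1 4 or sgCtrl 3. Notch and Wnt genes rose in 5 and fell in 4 of 23. Autophagy genes rose in 5 and fell in 0 of 25, but rose in 2 or 3 without sgL1 6, sgCtrl 1 or sgCtrl 3. Lysosomal genes rose in 5 and fell in 2 of 28, while without sgL1 6 they rose in 2 and fell in 0, and without sgL1 5, sgCtrl 1 or sgCtrl 2 they fell in 1. NRF2 targets rose in 4 and fell in 1 of 26 (fell in 3 without sgL1 4 and in 0 without sgCtrl 2), and heat shock protein genes rose in 0 and fell in 2 of 18. BCL2-family genes rose in 3 and fell in 2 of 15. In both of these lists 1 member fell without sgL1 6 or sgCtrl 1. Additionally, TNF-superfamily genes rose in 3 and fell in 2 of 18. The p53 targets rose in 3 and fell in 0 of 20, and CDK inhibitors and D cyclins rose in 1 and fell in 0 of 10. Histone genes rose in 2 and fell in 0 of 9, and rose in 1 without sgL1 4, sgL1 5 or sgCtrl 3 or with the GC offset. Antigen-presentation genes rose in 2 and fell in 0 of 12, rose in 1 without sgL1 4 or sgCtrl 3, and fell in 1 without sgL1 4. Basal and mesenchymal markers rose in 1 and fell in 4 of 9, and luminal markers rose in 3 and fell in 0 of 11.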

How the data were processed

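Total RNA of 9 MDA-MB-231 libraries was sequenced. Per the labels' protocols, RNA was isolated with TRIzol and libraries were made with standard Illumina methods. Tools named in the submitters' processing notes are featureCounts 2.0.0, STAR 2.7.7a and fastp 0.20.1, with GRCh38 as the build; settings, annotation release and use of strand were not given in the sources used here. Overlapping genes on either strand may therefore share reads. The authors deposited unnormalized gene counts (whole numbers) and FPKM values for the same rows. Of 59362 rows, 627 without a symbol (0.358% to 0.410% of a library's counts) were left out. Gene types, coordinates, transcript length and GC content come from GENCODE 29, which may not be the authors' release, and promoter windows from RefSeq (GRCh38.p14).

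The 3 sgL1 4-6 and 3 sgCtrl libraries were compared with edgeR 4.0.16 (R 4.3.3): filterByExpr, TMM factors over all 9 libraries, robust quasi-likelihood F test, Benjamini-Hochberg adjusted p under 0.05 over all 14830 genes. SE come from the F statistic. Pairs of libraries within a group differed by a mean chi-square per gene of 2.30 to 4.27, above the mean of 1 that sampling noise gives. The median over genes was 0.902 to 1.27, which cannot be set against that 1, because sampling noise gives a median lower than its mean. The labels name no molecular identifiers, and floors (3 counts) cover counting error only. The fit was also run on counts simulated from its own model, with means and spreads estimated from these 6 libraries. Such a run cannot test that model or the independence of the libraries. Members and gene lists (52 lists, 1202 of 1203 members found, 1 under another symbol) were chosen with earlier results of these data known. Named are the 15 largest rises and 15 largest falls of protein-coding genes (symbol unique, mean CPM 1 or more, groups not overlapping); the 10 largest rises and falls of those with under 50% of the change in sgL1 1-3; all UFMylation genes; up to 5 members of smallest adjusted p in each list; and genes called in opposite directions in sgL1 1-3. VIM, ANGPTL4, ACLY, FDFT1, NFKBIZ, BIRC3 and CXCL11 were added after their values were seen. Some genes that these rules name are not reported here. Alternatives were other scalings, DESeq2 1.42.0, limma-voom and limma on log2(FPKM + 1) or log2(FPKM + 0.1) (limma 3.58.1), which understate changes of low genes, other filters and thresholds, all 9 libraries in 1 fit, each library left out and, chosen after seeing the data, a GC offset.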

Additional observations from a re-analysis of the deposited data

Results flagged for a closer look

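SPINT2, which encodes an inhibitor of serine proteases, lay on opposite sides of sgCtrl in the 2 sets of sgL1 libraries. It was at 212, 208 and 211 CPM in sgL1 4, 5 and 6, below 232, 219 and 234 CPM in sgCtrl, and at 251, 266 and 245 CPM in sgL1 1, 2 and 3, above sgCtrl. The log2 fold change was -0.12 ± 0.038 in sgL1 4-6 (edgeR adjusted p = 0.0347) and 0.15 ± 0.04 in sgL1 1-3 (edgeR adjusted p = 0.008). The difference between the sgL1 sets was not tested. The call in sgL1 4-6 was lost without sgL1 5, sgL1 6, sgCtrl 1 or sgCtrl 3, and with upper-quartile scaling, DESeq2, all 9 libraries in 1 fit, no filter on low counts and all 3 log2(FPKM) fits. With the GC offset the log2 fold changes were -0.097 in sgL1 4-6 (edgeR adjusted p = 0.0355) and 0.092 in sgL1 1-3 (edgeR adjusted p = 0.0827), so that the call in sgL1 1-3 was lost. SPINT2 was named by the rule for genes called in opposite directions, so its place among the 244 named genes follows from that rule. No other named gene lay on opposite sides in this way. Of 14830 tested genes, 34 were above every sgCtrl library in sgL1 4-6 and below every one in sgL1 1-3, and 42 the reverse.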

How the results depend on the processing

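No paired analysis was possible because sgL1 4-6 and sgCtrl 1-3 share no replicate number. Leaving out 1 library at a time gave 693 to 841 genes higher and 651 to 789 lower, and 68 to 82 and 42 to 51 of at least 2-fold. The other scalings, limma-voom, the filters, the fit of all 9 libraries and the GC offset (1082 higher, 1001 lower) kept all 4 counts within 1.5 times those reported. DESeq2 called 24 genes at least 2-fold lower. At an adjusted p under 0.01, 605 were higher, 529 lower and 29 at least 2-fold lower. The test against a 1.5-fold change called 57 higher and 18 lower, and 40 and 15 of at least 2-fold. Limma on log2(FPKM + 1) called 586 higher and 436 lower, and 24 and 2 of at least 2-fold. With log2(FPKM + 0.1) the counts were 581, 435 and, for 2-fold lower, 26. Restricted to a mean FPKM of at least 1, they were 557, 396, 26 and 2. The cause was not tested. Of genes with under 50% of the change in sgL1 1-3 (168 higher, 249 lower), 89 and 131 met the rule at an adjusted p under 0.01, 1 and 4 with the 1.5-fold test, and 77 to 78 and 85 to 95 on log2(FPKM) scales. Genes higher made up 51.7% of the calls, and 49.2% to 55.0% under the other scalings. UFL1 in sgL1 4-6 was 81.5% of sgCtrl with library-size scaling and 82.0% with RLE.

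Sign changes occurred in 2 named genes, neither of them called: ODR4 had a log2 fold change of 0.075 with all 6 libraries, and from -0.015 without sgL1 replicate 4 to 0.15 without sgCtrl replicate 1. UFSP1 had -0.068, and from -0.28 without sgCtrl replicate 1 to 0.40 without sgCtrl replicate 3. Of 243 named genes other than UFL1, 22 lost their call without sgCtrl 1, 28 without sgL1 6 and 15 with DESeq2. Losses were 26 at an adjusted p under 0.01, 195 with the 1.5-fold test, 43 with log2(FPKM + 1), 41 with log2(FPKM + 0.1) and 27 with a mean FPKM of at least 1. The GC offset ended the call of 1, HIST1H2BK. Depth limits the low genes: 3 counts are 0.176 to 0.195 CPM.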

Other observations

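RPS18 was listed at 268, 1.296 and 5.61 CPM in sgL1 4, 5 and 6, at 1.53, 2.13 and 11.2 CPM in sgCtrl and at 1.295, 1.62 and 1.26 CPM in sgL1 1, 2 and 3. The value of sgL1 4 stood far above the other 8 libraries, and the gene was not called (edgeR adjusted p = 0.407). It was chosen after its values were seen, and copies of the gene that share reads were not examined.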
